A study of Mus musculus with 18 samples.

Results

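The transcripts of 2 mitochondrial pathways, the citrate cycle and the breakdown of branched-chain amino acids, were followed in 2 tissues of C57BL/6J male mice, the epididymal fat pad and the liver. The genes were chosen by name, 14 for the citrate cycle and its entry and 18 for branched-chain breakdown. All 32 were found once among the 23474 gene identifiers of the expression table, and all 32 passed the filter on low values in both tissues (1 FPKM or more in at least 3 libraries). Mice received a high-fat diet with 0.25% green tea ethanol extract by weight (GT), the same high-fat diet without extract (HFD) or a normal diet (ND) for 12 weeks, and were 17 weeks old. Each diet had 10 mice, and 3 libraries of each tissue from each diet were sequenced, 18 in all. The labels do not say whether a library holds 1 mouse or a pool, and every p-value below reflects differences among libraries that may be technical.

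The citrate cycle oxidises acetyl groups from sugar, fat and amino acids in the mitochondrial matrix, and pyruvate carboxylase refills it with oxaloacetate. Leucine, isoleucine and valine first lose their amino group to a transaminase, and the keto acids then pass through the branched-chain keto acid dehydrogenase, a complex that a kinase switches off and a phosphatase switches on. Separate enzymes then take leucine to acetyl-CoA and acetoacetate, valine to propionyl-CoA, and isoleucine to both acetyl-CoA and propionyl-CoA, which enters the citrate cycle as succinyl-CoA. White fat cells are known to use these amino acids as a carbon source, while liver is known for a low level of the transaminase and a high activity of the dehydrogenase.

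Libraries differed in tissue content. In fat, 12 testis markers summed to 2082 FPKM in HFD 1, to 100469 in ND 1, to 2996 in ND 3 and to at most 164 in the other libraries. The 8 epididymis markers summed to 1275 FPKM in HFD 2 and to 20934 in ND 1. Fat ND 1 also had the lowest sum of 12 adipocyte markers, 7586 FPKM against 18073 to 38465 in the other fat libraries, and a total of 1002765 FPKM against 527904 to 608819. In it, the 18 branched-chain genes summed to 345 FPKM and the 14 citrate cycle genes to 589, against at least 800 and 1195 in every other fat library. Its values of Sucla2, Suclg1, Mdh2, Bcat2 and Bckdha were not low. Liver libraries held hepatocyte markers at a sum of 15566 to 46687 FPKM, although albumin (Alb) was listed at 0 in HFD 3. The muscle marker sum of liver was 55.6 FPKM in GT 3, 135 in HFD 2 and 28.9 in HFD 3, against 3.44 or less elsewhere. Results for fat are therefore given with all 9 libraries and without ND 1, and each value is in FPKM, fragments per kilobase of transcript scaled to the mapped fragments of the library.

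With all 9 fat libraries, none of the 32 genes passed the test (limma on log2(FPKM + 1), adjusted p under 0.05 over all genes) in any of the 3 diet comparisons. Of all 13762 genes tested, 0% were called for GT against HFD, 5.65% for HFD against ND and 0.639% for GT against ND. At an unadjusted p under 0.05 the members gave 2 genes for GT against HFD, 1 for HFD against ND and 0 for GT against ND, where all genes gave 3.39%, 20.5% and 20.4%. The ND libraries of a member usually spanned a wide range, as in Aldh6a1, which had 9.99 FPKM in ND 1 against 319 and 239 in ND 2 and ND 3. Without ND 1, 18 members were called for HFD against ND, and the following values for fat are from the 8 libraries left.

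Transcripts of branched-chain breakdown were lower in fat of HFD mice. In HFD against ND, 14 of 18 genes fell and none rose, where 27.4% of all 12859 genes tested were called and 9.62% fell. The median change of the 18 genes was -0.87 on the log2 scale, against 0.02 over all genes. In 16 of 18 genes every HFD library lay under both ND libraries, which held for 20.2% of all genes. The falls ran from the transaminase to propionyl-CoA carboxylase, and the genes that were not called were the kinase Bckdk, Auh, Acad8 and Mcee. A change in the RNA of a bulk tissue can come from fewer cells of a type or from less RNA per cell, and these cannot be told apart here.

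The decarboxylase and transacylase subunits form the catalytic core of the branched-chain keto acid dehydrogenase. Bckdha, the alpha subunit of its decarboxylase, had 86.3, 102 and 108 FPKM in GT, 60.8, 50.3 and 58.5 in HFD, and 104 and 102 in ND 2 and ND 3, with 97.8 in ND 1. The HFD libraries lay below all others, ND 1 included (HFD against ND, log2 -0.86 ± 0.14 (SE), adjusted p = 0.00371). Bckdhb, the beta subunit, had 52.4, 48.2 and 49.3 FPKM in GT, 43.7, 33.8 and 32.7 in HFD, and 90.9 and 59.8 in ND 2 and ND 3 (HFD against ND, log2 -1.0 ± 0.20, adjusted p = 0.0079). Dbt, the transacylase, had 19.0, 20.8 and 27.1 FPKM in GT, 14.3, 15.5 and 15.7 in HFD, and 41.6 and 29.6 in ND 2 and ND 3 (HFD against ND, log2 -1.16 ± 0.19, adjusted p = 0.00384). For both Bckdhb and Dbt the GT libraries stood between the other diets without overlap, while ND 1 had only 7.96 and 2.01 FPKM.

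The leucine branch held the gene of smallest p. Ivd, the isovaleryl-CoA dehydrogenase, had 78.8, 104 and 115 FPKM in GT, 48.0, 58.0 and 60.1 in HFD, and 152 and 144 in ND 2 and ND 3, with 29.4 in ND 1. The 3 diets did not overlap once ND 1 was left out, and HFD was the lowest (HFD against ND, log2 -1.41 ± 0.18, adjusted p = 0.00157). Mccc2, the beta subunit of methylcrotonyl-CoA carboxylase, had 28.2, 33.0 and 37.2 FPKM in GT, 20.9, 22.6 and 23.9 in HFD, and 45.6 and 39.3 in ND 2 and ND 3 (HFD against ND, log2 -0.89 ± 0.15, adjusted p = 0.00407). Its alpha subunit Mccc1 fell by 0.93 ± 0.19 (adjusted p = 0.00853). Auh, the methylglutaconyl-CoA hydratase that follows, had -0.42 ± 0.20 and was not called (adjusted p = 0.169).

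Acadsb, which oxidises the isoleucine product, had 50.4, 64.9 and 75.8 FPKM in GT, 38.2, 50.3 and 39.7 in HFD, and 123 and 85.3 in ND 2 and ND 3 (HFD against ND, log2 -1.25 ± 0.22, adjusted p = 0.00522). In the valine branch Hibch, the hydroxyisobutyryl-CoA hydrolase, fell by 1.25 ± 0.28 and Hibadh, the next dehydrogenase, by 0.71 ± 0.19 (adjusted p = 0.0144 and 0.0268), while Acad8, the first dehydrogenase, had -0.31 ± 0.12 (adjusted p = 0.102). Aldh6a1, which ends the valine branch at propionyl-CoA, had 109, 137 and 175 FPKM in GT, 76.6, 117 and 89.7 in HFD, and 319 and 239 in ND 2 and ND 3. It had the largest change of the 32 genes (HFD against ND, log2 -1.56 ± 0.25, adjusted p = 0.00322), and its GT and HFD libraries overlapped.

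Propionyl-CoA carboxylase joins the isoleucine and valine branches to the citrate cycle. Its beta subunit Pccb had 77.4, 96.4 and 113 FPKM in GT, 60.3, 59.4 and 57.9 in HFD, and 125 and 127 in ND 2 and ND 3, with no overlap between these diets (HFD against ND, log2 -1.08 ± 0.16, adjusted p = 0.00242). The alpha subunit Pcca fell by 0.76 ± 0.19 (adjusted p = 0.0189), and Mcee, the epimerase that follows, had -0.17 ± 0.15 (adjusted p = 0.458). The transaminase Bcat2 fell by 0.43 ± 0.13 (adjusted p = 0.0441). The phosphatase Ppm1k fell by 0.65 ± 0.20 (adjusted p = 0.0457), from a level that was low in fat on every diet (2.03 to 2.79 FPKM in GT and HFD, and 5.31 and 3.40 in ND 2 and ND 3). The kinase Bckdk had -0.09 ± 0.16 (adjusted p = 0.69).

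**Figure D1:**
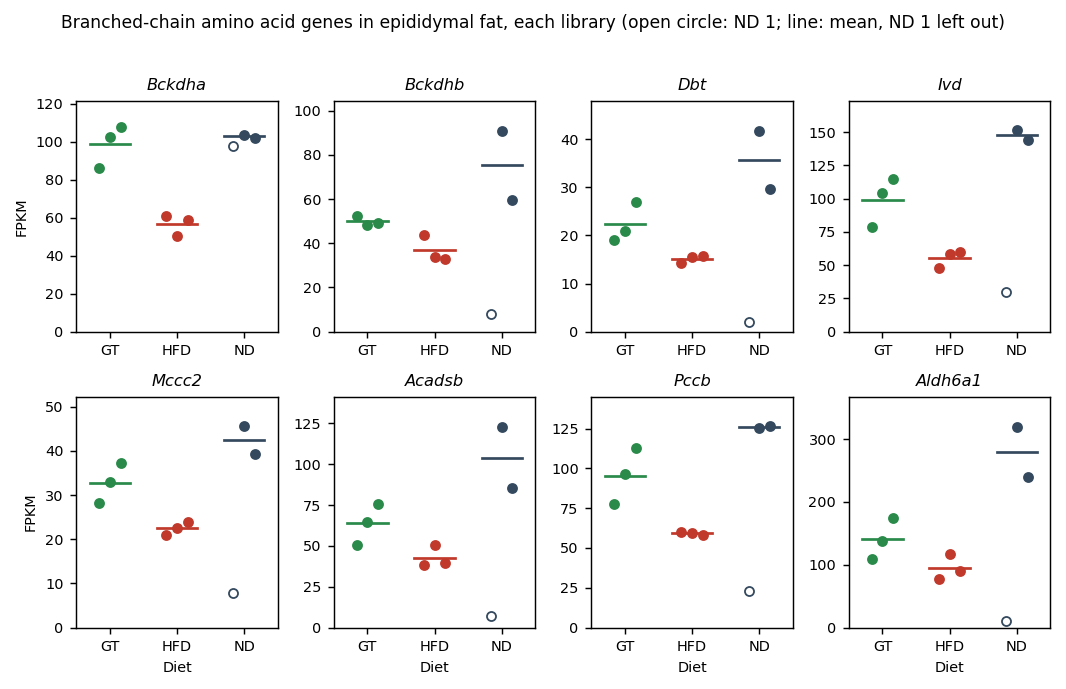
FPKM of 8 branched-chain genes in epididymal fat by diet (GT, HFD, ND), with 1 point per library, an open circle for ND 1 and a line at the mean without ND 1. The 3 HFD libraries sit below ND 2 and ND 3 in every panel, and ND 1 is at 29.4 FPKM or less in all panels but Bckdha, where it is at 97.8.

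The share of all genes called depended on single libraries, at 27.4% with the 8 libraries and 16.0% without HFD 3. The number of member calls did so too. It was 11 of 32 without HFD 3, against 18, and 12 to 21 when any other of the 8 libraries was left out. Bckdha, Bckdhb, Dbt, Ivd, Mccc1, Mccc2, Acadsb, Pccb and Aldh6a1 kept their call whichever library was left out, as did Idh2 and Suclg2 of the citrate cycle. Hibch lost it without HFD 3 (adjusted p = 0.053), and Pcca without ND 2, HFD 2 or HFD 3. Hibadh lost it without ND 2, any HFD library or GT 2, Bcat2 without ND 2, HFD 2, HFD 3 or any GT library, and Ppm1k in every case but without ND 3. With both ND 3 and HFD 1 also left out for their testis transcripts, ND 2 was the lone ND library, assumed to vary like the libraries of the other diets. The median change of the 32 members was then -0.6, against 0.14 over all genes.

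Ivd and Aldh6a1, with the largest falls, and Pccb, with the smallest p after Ivd, are shown by the 250 bases before their transcription start, as background on genes that moved together (RefSeq, GRCm38.p6, 5′ to 3′ on the strand of the gene). Promoter windows were matched for 30 of the 32 genes, and Dbt and Idh3a were not shown. The capitals mark exact matches on either strand to the CCAAT box (ATTGG) and, in Pccb, to the NRF1 element (GCGC, then N and T, then GCGC). Aldh6a1 has a further start in that table, which is not shown.
Ivd, chr2:118861744-118861993, plus strand: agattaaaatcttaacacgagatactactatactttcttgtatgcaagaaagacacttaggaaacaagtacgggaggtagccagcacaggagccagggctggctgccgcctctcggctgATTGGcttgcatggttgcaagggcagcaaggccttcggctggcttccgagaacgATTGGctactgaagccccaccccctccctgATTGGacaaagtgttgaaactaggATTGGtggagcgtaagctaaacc
Aldh6a1, chr12:84451025-84451274, minus strand: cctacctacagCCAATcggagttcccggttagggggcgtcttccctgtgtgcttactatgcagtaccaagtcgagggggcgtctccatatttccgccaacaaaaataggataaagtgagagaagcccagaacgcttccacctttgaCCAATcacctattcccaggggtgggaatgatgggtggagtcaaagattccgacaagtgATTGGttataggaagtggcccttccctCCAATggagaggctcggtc
Pccb, chr9:101034885-101035134, minus strand: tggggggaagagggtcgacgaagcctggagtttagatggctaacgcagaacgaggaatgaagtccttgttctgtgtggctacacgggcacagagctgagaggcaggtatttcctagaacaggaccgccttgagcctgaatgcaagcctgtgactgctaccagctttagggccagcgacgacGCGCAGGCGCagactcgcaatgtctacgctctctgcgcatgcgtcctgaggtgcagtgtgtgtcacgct
The Ivd and the Aldh6a1 window each hold 4 CCAAT boxes. Of 32851 windows in the table, 33.8% hold at least 1 and 0.84% hold 4 or more, and these 2 genes were the only members with that many. By gene, the CCAAT box was present for 11 of 17 branched-chain genes and 8 of 13 citrate cycle genes, against 37.5% of all 27025 genes. The half-site of nuclear receptors (AGGTCA) was present for 4 of 17 and 2 of 13 (15.8% of all genes), and the NRF1 element for 2 of 17, Pccb among them, and 1 of 13 (4.23%). The ERR element (the half-site with TCA before it) and the direct repeat of the half-site with N between were present for no member (0.422% and 0.0407% of all genes). These are matches of letters in a window and say nothing of binding.

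Of the citrate cycle, 4 of 14 genes fell and none rose in HFD against ND, where 27.4% of all genes were called and 9.62% fell. The share called in either direction was near that of all genes, while the share that fell was above theirs. The median was -0.28, against 0.02 over all genes, and in 9 of 14 every HFD library lay under both ND libraries (20.2% of all genes). Suclg2, the GTP-linked beta subunit of succinyl-CoA ligase, had 22.5, 22.7 and 26.0 FPKM in GT, 18.4, 21.9 and 19.6 in HFD, and 36.5 and 33.1 in ND 2 and ND 3 (HFD against ND, log2 -0.77 ± 0.13, adjusted p = 0.00426). Idh2, the mitochondrial isocitrate dehydrogenase that makes NADPH, had 68.6, 73.1 and 76.0 FPKM in GT, 58.8, 52.4 and 57.2 in HFD, and 83.2 and 91.7 in ND 2 and ND 3. Its diets did not overlap, with ND 1 at 9.28 FPKM (HFD against ND, log2 -0.63 ± 0.12, adjusted p = 0.00583).

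Idh3g, a regulatory subunit of the NAD-dependent isocitrate dehydrogenase, had 111, 125 and 129 FPKM in GT, 94.6, 87.6 and 98.3 in HFD, and 133 and 124 in ND 2 and ND 3 (HFD against ND, log2 -0.46 ± 0.12, adjusted p = 0.0256). Pcx, the pyruvate carboxylase, had 195, 276 and 340.3 FPKM in GT, 179, 178 and 195 in HFD, and 283 and 321 in ND 2 and ND 3 (HFD against ND, log2 -0.71 ± 0.22, adjusted p = 0.0435). Calls of both were lost without ND 2, any HFD library or GT 2, and that of Pcx also without ND 3. The other 10 genes had changes of -0.38 to 0.13 with adjusted p of 0.0523 to 0.999. They were Cs (citrate synthase), Idh3a and Idh3b (the other subunits of that dehydrogenase), Ogdh, Dlst and Dld (the alpha-ketoglutarate dehydrogenase, whose subunit Dld the branched-chain complex shares), Sucla2 and Suclg1 (the other subunits of the ligase), Fh1 (fumarase) and Mdh2 (malate dehydrogenase).

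Counting both directions, the remaining genes of each pathway were called at about the share of all genes in fat (27.4%). Their falls were a larger share than those among all genes (9.62%). Among 24 citrate cycle partners, which include succinate dehydrogenase, the pyruvate dehydrogenase complex and cytosolic enzymes, 2 rose and 6 fell in HFD against ND. The pyruvate dehydrogenase kinase Pdk2 fell by 1.71 ± 0.23 (adjusted p = 0.00196), the cytosolic NADP-linked Idh1 rose by 1.24 ± 0.18 (adjusted p = 0.00215), the succinate dehydrogenase subunit Sdha fell by 0.75 ± 0.13 (adjusted p = 0.00514) and the pyruvate dehydrogenase subunit Pdha1 fell by 0.73 ± 0.16 (adjusted p = 0.0106). Among 20 branched-chain partners, transporters and shared enzymes of later steps, 3 rose and 4 fell. The cytosolic transaminase Bcat1 rose by 1.32 ± 0.20 (adjusted p = 0.00276), opposite to the fall of the mitochondrial Bcat2. The dehydrogenase Hsd17b10 of the isoleucine branch fell by 0.92 ± 0.17 (adjusted p = 0.00538), Hadha of fatty acid oxidation rose by 0.60 ± 0.12 (adjusted p = 0.00823), and the thiolase Acat1 fell by 0.75 ± 0.15 (adjusted p = 0.00947).

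**Figure D2:**
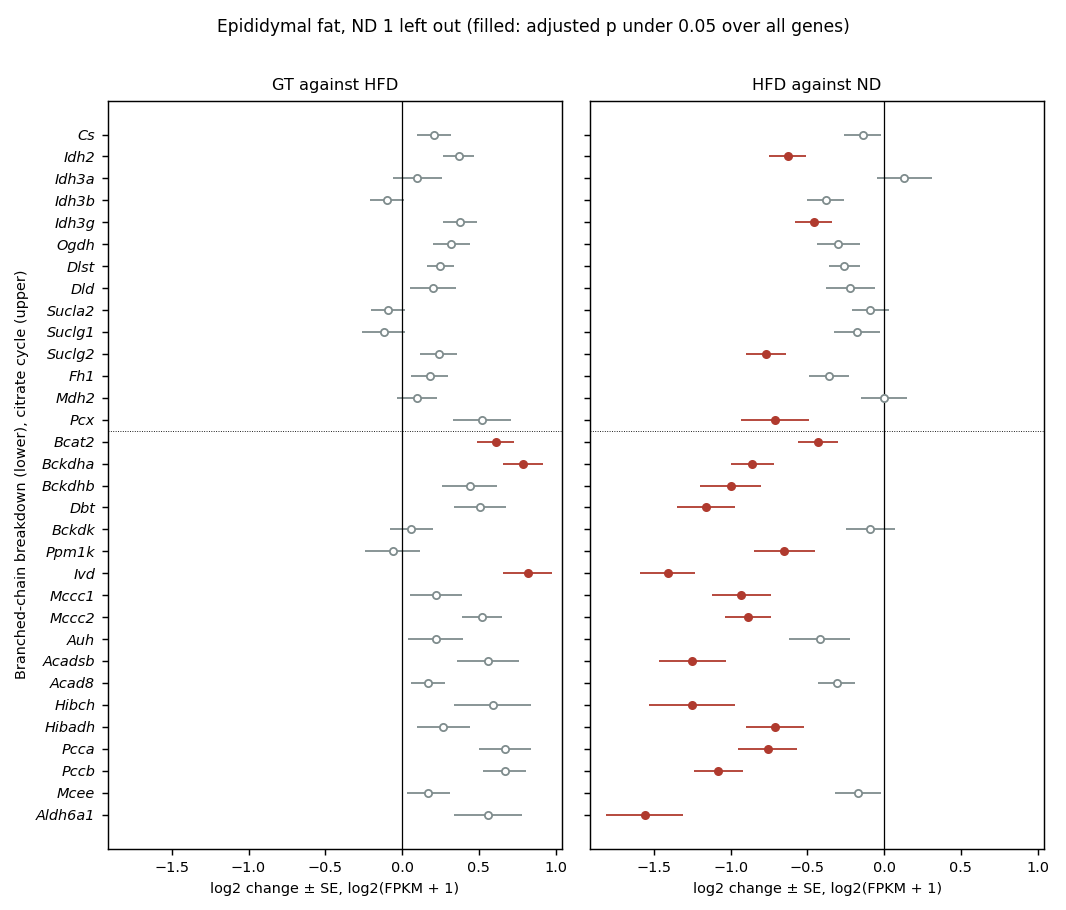
Change of each of the 32 genes in epididymal fat without ND 1, GT against HFD at left and HFD against ND at right, as log2 change ± SE on log2(FPKM + 1). Filled red points passed the test over all genes: 3 at left, all of branched-chain breakdown, and 18 at right, of which 14 are of branched-chain breakdown and 4 of the citrate cycle.

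Markers of cell types moved with these genes. In HFD against ND without ND 1, 9 of 12 adipocyte markers fell and 1 rose (median log2 -1.02), all 11 macrophage markers rose (median 3.78) and 3 of 5 mesothelium markers fell. Adipocyte markers summed to 25989, 28276 and 31156 FPKM in GT, 20688, 19767 and 18073 in HFD, and 38465 and 27089 in ND 2 and ND 3. Macrophage markers summed to 3822, 3297 and 1525 FPKM in GT, 5999, 4599 and 6692 in HFD, and 567 and 441 in ND 2 and ND 3. No defining marker of either list was at 0 in a fat library. The branched-chain genes summed to 1016, 1188 and 1300 FPKM in GT, 814, 836 and 800 in HFD, and 1838 and 1398 in ND 2 and ND 3, and both this sum and that of the adipocyte markers had HFD as the lowest diet. The sum of the citrate cycle genes was 1321, 1449 and 1563 FPKM in GT, 1232, 1195 and 1276 in HFD, and 1603 and 1479 in ND 2 and ND 3.

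Set against the adipocyte markers, a measure chosen after the values were seen, the branched-chain sum came to 3.91%, 4.20% and 4.17% in GT, 3.93%, 4.23% and 4.43% in HFD, and 4.78% and 5.16% in ND 2 and ND 3, with 4.55% in ND 1. The GT and HFD libraries overlapped, and both lay below all ND libraries. The citrate cycle sum came to 5.08%, 5.13% and 5.02% in GT, 5.96%, 6.04% and 7.06% in HFD, and 4.17% and 5.46% in ND 2 and ND 3, with 7.76% in ND 1. The marker sum leaned on its most abundant gene, Fabp4, which gave 23310 of 38465 FPKM in ND 2 and 14490 of 20688 in HFD 1. Single markers also differed by diet in both directions. Cfd had 4074 and 3626 FPKM in ND 2 and ND 3 and 251.3 to 349.2 in HFD, and Lep 322.7 and 316.6 against 898.8 to 1196. On mean log2 values the order differed. There the branched-chain genes minus the markers came to -3.99, -4.07 and -4.34 in GT, -3.81, -3.71 and -3.60 in HFD, and -3.89 and -4.12 in ND 2 and ND 3. HFD was above these, and ND 1 was above HFD at -3.31. The part of cell content in the results for fat was not tested.

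**Figure D3:**
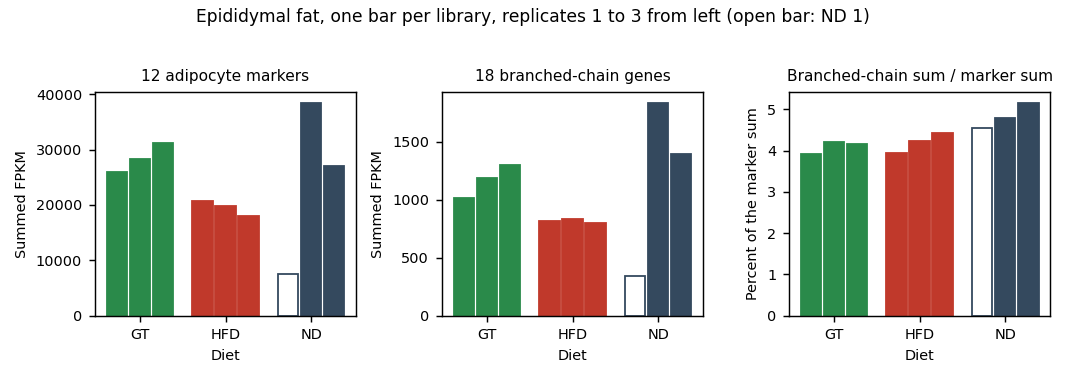
Epididymal fat, 1 bar per library, grouped by diet (GT, HFD, ND; open bar: ND 1): summed FPKM of 12 adipocyte markers, summed FPKM of the 18 branched-chain genes, and the second sum as a percent of the first. Both sums are lowest in ND 1 and next lowest in the HFD libraries, while the percent runs from 3.91 to 5.16.

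Branched-chain genes were higher in fat of GT than of HFD mice in most members, with few calls. Of 18 genes, 3 rose and none fell, where 1.7% of all genes were called and 0.894% rose, and the median change was 0.51 against -0.12 over all genes. In 13 of 18 every GT library lay above every HFD library, which held for 12.4% of all genes. Bckdha rose by 0.79 ± 0.13 (adjusted p = 0.0418) and Ivd by 0.82 ± 0.16 (adjusted p = 0.0493). Bcat2, whose values were singled out after they were seen, had 70.8, 71.2 and 65.2 FPKM in GT, 51.0, 40.5 and 43.7 in HFD, and 64.0 and 57.6 in ND 2 and ND 3. Its GT libraries lay above those of both other diets, ND 1 included at 58.6 (GT against HFD, log2 0.61 ± 0.12, adjusted p = 0.0492). The next by p were Pccb at 0.67 ± 0.14, Pcca at 0.67 ± 0.17 and Mccc2 at 0.52 ± 0.13 (adjusted p = 0.0636, 0.0789 and 0.0845).

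No citrate cycle gene was called for GT against HFD, with a median of 0.21 and 5 of 14 at an unadjusted p under 0.05, against 22.6% of all genes. In 8 of 14 the GT libraries lay above the HFD libraries (12.4% of all genes) and in 1, Idh3b, below them (24.5%). The smallest p were those of Idh2 at 0.37 ± 0.10 and Idh3g at 0.38 ± 0.11 (adjusted p = 0.103 and 0.106). Of the partners none of 24 was called for the citrate cycle, with 5 at an unadjusted p under 0.05, and 1 of 20 for branched-chain breakdown, the aminotransferase Abat, which rose by 1.26 ± 0.21 (adjusted p = 0.0457). In the same comparison 3 of 12 adipocyte markers rose (median 0.87) and no macrophage marker was called (median -1.15, all 11 at an unadjusted p under 0.05). Under quantile scaling the median of all genes stood at 0.02, and that of the 32 members at 0.33 against 0.26. The 3 calls fell to 0 without HFD 1, HFD 2, HFD 3, GT 2 or GT 3, where at most 0.0236% of all genes were called, against 1.7%. Without ND 2 or ND 3 the count of members rose, as did the share of all genes, with a lone ND library in the fit.

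In GT against ND, 4 of the 32 genes fell, where 10.7% of all genes were called and 3.16% fell. They were Suclg2 (log2 -0.53 ± 0.13, adjusted p = 0.0401) and Idh3b (-0.48 ± 0.12, 0.0443) of the citrate cycle, and Aldh6a1 (-1.0 ± 0.25, 0.0411) and Mccc1 (-0.71 ± 0.19, 0.0496) of branched-chain breakdown. Idh3b had 76.7, 76.7 and 75.5 FPKM in GT, 82.1, 81.2 and 82.5 in HFD, and 119.8 and 95.7 in ND 2 and ND 3, and was the only member with GT below both other diets without overlap, ND 1 left out at 26.8. The median over the branched-chain genes was -0.43 and that over the citrate cycle genes -0.13, against -0.05 over all genes. Of the partners 5 of 24 and 2 of 20 were called, with Idh1 at 0.91 ± 0.18 and Bcat1 at 0.95 ± 0.20 above ND as under HFD (adjusted p = 0.0184 and 0.0238). GT and HFD are set against the same ND libraries, so these values are not independent of those for HFD against ND. Without ND 2 the 4 falls gave way to 1 rise. The count was 0 without HFD 3, GT 1 or GT 2, 1 without HFD 2, 2 without HFD 1 and 9 without ND 3. With the replicate number as a block it was 0, where 1.22% of all genes were called. The share of all genes was 6.39%, 4.32% and 1.13% without HFD 3, GT 1 and GT 2.

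In liver few genes of either pathway were called. The branched-chain genes summed to 1562, 1568 and 1191 FPKM in GT, 1389, 1289 and 1274 in HFD, and 1197, 1217 and 1238 in ND. The citrate cycle genes summed to 1428, 1359 and 928 FPKM in GT, 1384, 1296 and 1331 in HFD, and 1397, 1295 and 1358 in ND. In GT 3, the library with the second highest muscle sum, both sums were the lowest of all 9 libraries. In HFD against ND, 2 of 14 citrate cycle genes and 2 of 18 branched-chain genes rose and none fell, where 18.6% of all 10670 genes tested were called and 11.9% rose. The 4 calls among 32 are a smaller share than that of all genes. The medians were 0.08 and -0.08, against -0.02 over all genes. In the same comparison 4 of 8 adipocyte markers and 1 of 8 macrophage markers rose, and of 8 hepatocyte markers 1 rose and 2 fell, and their part was not tested. The adipocyte markers Adipoq, Plin1, Lep and Retn had at most 1.399 FPKM in any liver library and were not among the 8.

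Cs had 51.0, 41.5 and 36.0 FPKM in GT liver, 64.1, 57.0 and 63.4 in HFD liver, and 42.9, 42.5 and 39.2 in ND liver. Idh2 had 74.5, 61.0 and 45.9 FPKM in GT, 86.3, 101 and 94.7 in HFD, and 51.9, 66.1 and 45.6 in ND. For both genes HFD stood above both other diets without overlap (HFD against ND, log2 0.55 ± 0.16, adjusted p = 0.0345 for Cs and 0.79 ± 0.20, 0.0228 for Idh2). Mdh2, next by p, had 155, 127 and 146 FPKM in GT, 171, 198 and 181 in HFD, and 131, 151 and 122 in ND (0.44 ± 0.15, adjusted p = 0.068). Dlst had 101, 102 and 56.6 FPKM in GT, 87.0, 70.6 and 75.7 in HFD, and 120.5, 113 and 113 in ND (-0.57 ± 0.22, adjusted p = 0.09). Over the cycle, 5 of 14 genes lay above and 4 below ND without overlap (23.6% and 21.3% of all genes), and of branched-chain breakdown 4 of 18 lay above and 6 below.

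Of the branched-chain genes in liver, Mcee, the epimerase before the mutase that yields succinyl-CoA, had 49.7, 44.8 and 63.7 FPKM in GT, 64.4, 88.7 and 65.8 in HFD, and 35.0, 45.7 and 33.4 in ND (HFD against ND, log2 0.92 ± 0.20, adjusted p = 0.0123). Auh had 45.4, 39.3 and 30.8 FPKM in GT, 41.4, 47.6 and 41.0 in HFD, and 24.1, 28.7 and 27.7 in ND, with both high-fat groups above ND (HFD against ND, 0.67 ± 0.17, adjusted p = 0.0216). Mcee and Auh were among the 4 genes without a call in fat. Ppm1k, next by p, had 27.1, 29.9 and 23.7 FPKM in GT, 26.7, 21.8 and 20.0 in HFD, and 31.4, 28.9 and 39.0 in ND (HFD against ND, -0.52 ± 0.17, adjusted p = 0.058). Hibadh, the most abundant branched-chain gene of liver, had 300.1, 288 and 232 FPKM in GT, 289, 256 and 262 in HFD, and 199, 192 and 196 in ND (HFD against ND, 0.45 ± 0.15, adjusted p = 0.058).

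In GT against HFD, Ivd alone was called in liver, where 5.36% of all genes were called and 1.14% rose. In the same comparison 4 of 8 macrophage markers, 1 of 8 adipocyte markers and 1 of 8 hepatocyte markers fell and none rose, and their part was not tested. Ivd had 147, 139 and 149 FPKM in GT, 95.7, 97.5 and 88.1 in HFD, and 104, 109.7 and 106 in ND. GT stood above both other diets without overlap (GT against HFD, log2 0.63 ± 0.13, adjusted p = 0.0287), also in GT 3, where the sum of the pathway was the lowest. Ivd was also among the 3 genes called for GT against HFD in fat. Next by p were Dbt at 0.83 ± 0.24, Cs at -0.52 ± 0.16 and Idh2 at -0.65 ± 0.20 (adjusted p = 0.0678, 0.079 and 0.0839). In GT against ND no member was called, with 5 of 32 at an unadjusted p under 0.05, where 2.6% of all genes were called and 16.5% had such a p.

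Partner genes in liver gave 3 rises and 1 fall among 22 citrate cycle partners tested in HFD against ND, and 1 rise and 2 falls among 18 branched-chain partners, which is about the share of all genes called there (18.6%). The mitochondrial pyruvate carrier Mpc1 rose by 1.08 ± 0.16 and the phosphatase subunit Pdpr fell by 1.23 ± 0.26 (adjusted p = 0.00257 and 0.0117). The succinate dehydrogenase subunits Sdhc and Sdhb rose by 0.56 ± 0.14 and 0.65 ± 0.17 (adjusted p = 0.0197 and 0.0226). The amino acid transporter Slc43a1 fell by 0.71 ± 0.17, Abat fell by 1.29 ± 0.38 and Mmab, which prepares the cofactor of methylmalonyl-CoA mutase, rose by 0.54 ± 0.17 (adjusted p = 0.0181, 0.0399 and 0.0498). In GT against HFD, Slc43a1 rose by 1.42 ± 0.17 and Mpc1 fell by 0.69 ± 0.16 (adjusted p = 0.00526 and 0.0347), opposite to their changes in HFD against ND, with which the HFD libraries are shared. In GT against ND, Mmab rose by 0.87 ± 0.17 (adjusted p = 0.0256).

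The liver calls depended on single libraries, and so did the share of all genes called. For HFD against ND the 4 calls fell to 0 without ND 1, ND 3 or HFD 2. There 5.38%, 4.82% and 4.35% of all genes were called, against 18.6%. Without HFD 3 there were 2 calls (14.0% of all genes). Without GT 3 there were 16, with 7 rises and 9 falls (31.8% of all genes). Ivd lost its call for GT against HFD without ND 1, any HFD library, GT 1 or GT 2. Without GT 3, 4 members were called (11.7% of all genes, against 5.36%). For GT against ND there were 2 calls without GT 3 (4.04% of all genes, against 2.6%) and 0 without any other library. Without HFD 2 and GT 3, the libraries richest in muscle transcripts, the counts were 2 for GT against HFD, 6 for HFD against ND (5 rises and 1 fall) and 3 for GT against ND. Of all genes 2.3%, 17.1% and 4.17% were called there, against 5.36%, 18.6% and 2.6%. Quantile scaling gave 3 rises and 2 falls for HFD against ND (18.3% of all genes). Equal FPKM totals gave 1 rise, where 13.7% of all genes were called. The median of all genes was then -0.20 and that of the members -0.19, against -0.02 and 0.02. The part of muscle transcripts in these counts was otherwise not tested.

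**Figure D4:**
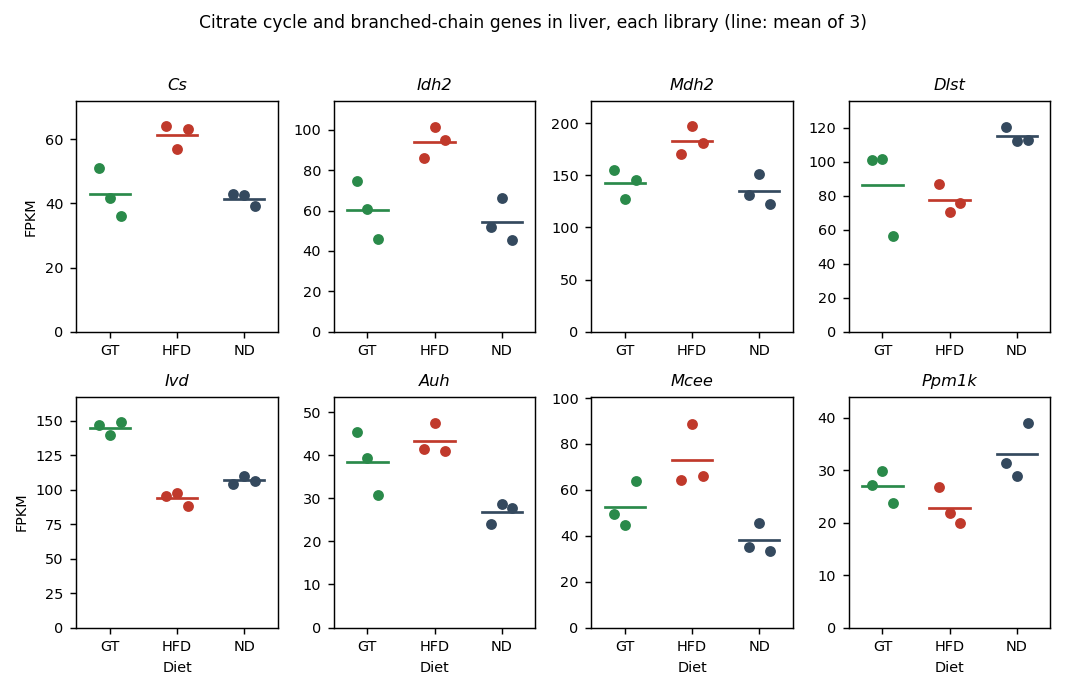
FPKM of 4 citrate cycle genes (Cs, Idh2, Mdh2, Dlst) and 4 branched-chain genes (Ivd, Auh, Mcee, Ppm1k) in liver by diet (GT, HFD, ND), with 1 point per library and a line at the mean of 3. HFD stands above ND in Cs, Idh2, Mdh2, Auh and Mcee, and the GT libraries of Ivd, at 139 to 149 FPKM, stand above all others.

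The diet change differed between the tissues in 14 of 32 genes for HFD against ND (fat change minus liver change, 17 libraries without fat ND 1). Fat and liver libraries were fitted as independent. The labels do not say whether they share mice, and this was not checked. With all 18 libraries the count was 1, where 8.53% of all genes were called, and the values of Cs, Idh3g and Aldh6a1 were above 0. In all 14 the change was lower in fat than in liver. They were 10 of 18 branched-chain and 4 of 14 citrate cycle genes, where 21.5% of all 9957 genes tested were called and 9.69% had a lower change. Cs, Auh and Mcee, among them, had no call in fat and rose in liver. The difference was -1.29 ± 0.20 for Bckdha (adjusted p = 0.000284), -1.22 ± 0.21 for Ivd (adjusted p = 0.000788) and -1.42 ± 0.25 for Idh2 (adjusted p = 0.000928), which fell in fat and rose in liver. Bckdha, Bckdhb, Ivd, Hibadh, Mcee, Idh2 and Idh3g were called whichever library was left out. Without fat ND 2 a lone ND library of fat was left, and the median difference of the 32 members was -0.6, against -0.69. For GT against HFD the difference was called in 4 genes, all with the higher change in fat. Of all genes 3.88% were called and 2.78% had a higher change in fat. Bckdha, at 0.98 ± 0.18 (adjusted p = 0.0102), kept its call whichever library was left out, and the calls of Cs, Idh2 and Idh3g did not. Without fat HFD 2, HFD 3, GT 2 or GT 3, or without liver HFD 2, Bckdha was the lone call (0.895% to 1.55% of all genes called). There were 2 calls without fat HFD 1 or without liver ND 1, ND 3, HFD 1, HFD 3 or GT 2 (2.06% to 3.7% of all genes). With the median of all genes shifted to 0.30 by equal FPKM totals, against 0.05, the first count was 7 (21.5% of all genes). With it shifted to -0.21, against -0.05, the second was 0 (1.39%), as it was with all 18 libraries (0.00996%).

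Most members differed in level between the tissues. Averaged over diets, 13 members were higher and 11 lower in fat than in liver, where 85.3% of all genes were called, 68.7% as higher and 16.6% as lower. In the branched-chain switch, the kinase Bckdk averaged 55.5 ± 6.40, 53.4 ± 6.41 and 57.0 ± 6.84 FPKM (SD) in GT, HFD and ND fat (n = 3, 3 and 2), against 9.39 ± 3.49, 8.70 ± 1.58 and 13.0 ± 1.16 in GT, HFD and ND liver (n = 3 each). The phosphatase Ppm1k averaged 2.23 ± 0.206, 2.38 ± 0.363 and 4.35 ± 1.35 FPKM in these groups of fat, against 26.9 ± 3.06, 22.8 ± 3.51 and 33.1 ± 5.27 in those of liver. The kinase was the higher of the pair in fat and the lower in liver, with differences of 2.35 ± 0.13 and -2.87 ± 0.10 between the tissues (fat minus liver, adjusted p = 1.36e-11 and 4.22e-14).

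The ratio of Bckdk to Ppm1k was 22.2, 30.6 and 22.5 in GT fat, 25.5, 16.5 and 27.2 in HFD fat, and 11.6 and 15.4 in ND 2 and ND 3, with 3.91 in ND 1. Every GT and HFD library of fat lay above every ND library. In liver the ratio lay between 0.238 and 0.507 on all diets. As mean log2 ratios it stood at 4.63 ± 0.26 in GT, 4.49 ± 0.39 in HFD and 3.15 ± 1.04 in ND fat (SD, n = 3 each, ND 1 included), and at -1.59 ± 0.43, -1.40 ± 0.36 and -1.34 ± 0.12 in GT, HFD and ND liver. The ratio is a description of 2 transcripts. With 1 FPKM added to both, the means of fat were 4.12 in GT, 4.01 in HFD and 2.83 in ND.

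Subunits of the same complex, or of its GTP-linked and ATP-linked forms, differed in opposite directions. Of the NAD-dependent isocitrate dehydrogenase, the catalytic subunit Idh3a was higher in fat by 2.20 ± 0.09 and Idh3g by 0.92 ± 0.07, while Idh3b was lower by 0.44 ± 0.08 (adjusted p = 3.53e-13, 1.92e-09 and 8.63e-05). Of succinyl-CoA ligase, Suclg2 and Suclg1 were lower in fat by 2.37 ± 0.13 and 1.55 ± 0.12 (adjusted p = 1.31e-11 and 1.88e-09), and the ATP-linked Sucla2 was higher by 0.39 ± 0.17 (adjusted p = 0.0387). Cs, Ogdh, Dld and Pcx were higher in fat as well, by 1.55 ± 0.08, 1.07 ± 0.10, 0.73 ± 0.14 and 0.68 ± 0.14, and Fh1 was lower by 1.32 ± 0.08. Of branched-chain breakdown, Bcat2, Mccc1, Acadsb, Hibch and Auh were higher in fat, by 1.01 ± 0.11, 0.99 ± 0.12, 0.49 ± 0.13, 0.42 ± 0.14 and 0.32 ± 0.11. Mcee, Hibadh, Bckdha, Acad8, Bckdhb and Ivd were lower, by 1.22 ± 0.10, 0.94 ± 0.10, 0.93 ± 0.08, 0.52 ± 0.10, 0.51 ± 0.11 and 0.28 ± 0.09.

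Tissue levels depend on scaling, since the median of all genes was 0.71 higher in fat, 1.15 higher with equal FPKM totals and -0.02 with quantile scaling. Relative to 0.71, the medians of 0.24 for the citrate cycle and -0.07 for branched-chain breakdown lay below those of all genes. Equal totals gave 20 higher and 7 lower members and quantile scaling 9 higher and 17 lower. Equal totals turned Idh3b to 0.06 and Ivd to 0.21, and quantile scaling turned Auh to -0.25. The differences in Bckdk and Ppm1k kept their direction under both. Calls of Auh and Hibch were lost without fat ND 2, and that of Sucla2 without any of 9 libraries, fat ND 2, ND 3, HFD 1, HFD 3, GT 1 and GT 2 and liver ND 2, HFD 2 and HFD 3.

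**Figure D5:**
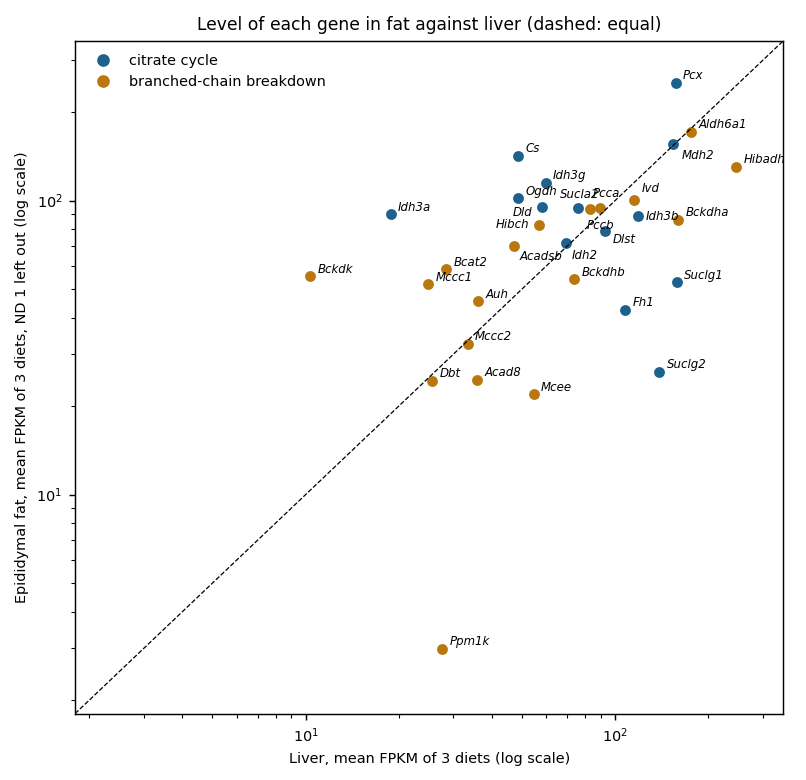
Mean FPKM of each of the 32 genes over the 3 diets in fat (ND 1 left out) against liver, both axes on a log scale, with a dashed line at equal levels. Bckdk and Idh3a stand farthest above the line, and Ppm1k and Suclg2 farthest below it.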

How the data were processed

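Polyadenylated RNA was sequenced as 18 libraries, 3 per tissue and diet, grouped by the labels. The deposited table gives FPKM per gene, made by the authors with CASAVA 1.8.2, STAR 2.4.0 and Cufflinks 2.1.1, per the submitters' processing notes, on a genome build not given in the sources used here. Read numbers were not analysed here, so the depth is unknown. Of 23474 identifiers, 22671 had a symbol in GENCODE M21. A listed 0 may be an estimate that failed.

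Values were tested as log2(FPKM + 1), which understates changes of low genes, in limma 3.58.1 under R 4.3.3. Each diet had its own mean, and variances used the trend and robust options of empirical Bayes. Genes with 1 FPKM in at least 3 libraries entered, p-values were adjusted by Benjamini-Hochberg over all of them, and 0.05 was the threshold. Nonoverlap means that every library of one group lay above every library of the other. The fits were tested on simulated data. Members and lists were chosen with earlier results of these data known. All 32 members are named, with values in every library for up to 8 called members per pathway and tissue by smallest p, and for up to 4 where fewer were called. Partners are given by counts, with up to 4 called ones named per comparison. Promoter windows are from RefSeq. Repeats added 0.1 in place of 1, dropped the filter, scaled by quantiles or to equal totals, blocked on the replicate number, kept the compared diets alone, or left libraries out. Fits of both tissues without 2 liver libraries and ratios to adipocyte markers were added after seeing the data. Plots were made in Python 3.11.15 with pandas 2.3.3, NumPy 2.4.6 and matplotlib 3.10.9.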

Additional observations from a re-analysis of the deposited data

Results flagged for a closer look

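The diet changes of 14 members for HFD against ND and of 4 for GT against HFD differed between fat and liver by the interaction test in limma, which is why they are listed here as fat change minus liver change (log2 ± SE). For HFD against ND the citrate cycle genes were Cs at -0.70 ± 0.20 (adjusted p = 0.0207), Idh2 at -1.42 ± 0.25 (adjusted p = 0.000928), Idh3g at -0.76 ± 0.18 (adjusted p = 0.00655) and Suclg2 at -1.08 ± 0.32 (adjusted p = 0.0231). The genes of the branched-chain dehydrogenase and of the leucine branch were Bckdha at -1.29 ± 0.20 (adjusted p = 0.000284), Bckdhb at -1.24 ± 0.27 (adjusted p = 0.00349), Ivd at -1.22 ± 0.21 (adjusted p = 0.000788), Mccc1 at -1.0 ± 0.30 (adjusted p = 0.0236) and Auh at -1.09 ± 0.26 (adjusted p = 0.00787). Those of the valine branch and of propionyl-CoA metabolism were Hibch at -1.43 ± 0.35 (adjusted p = 0.00799), Hibadh at -1.17 ± 0.24 (adjusted p = 0.00261), Aldh6a1 at -1.39 ± 0.38 (adjusted p = 0.0154), Pcca at -0.96 ± 0.26 (adjusted p = 0.0152) and Mcee at -1.09 ± 0.26 (adjusted p = 0.0072). In the same test the change was lower in fat than in liver for 7 of 8 adipocyte markers and higher for 7 of 8 macrophage markers. In liver itself 4 of 8 adipocyte markers rose in HFD against ND. Adipoq, Plin1, Lep and Retn of that list had at most 1.399 FPKM in any liver library and were not among the 8 tested. The part of these markers in the differences was not tested.

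For GT against HFD the genes were Cs at 0.73 ± 0.19 (adjusted p = 0.043), Idh2 at 1.02 ± 0.24 (adjusted p = 0.0263), Idh3g at 0.66 ± 0.17 (adjusted p = 0.0407) and Bckdha at 0.98 ± 0.18 (adjusted p = 0.0102). Cs, Idh2, Idh3g and Bckdha were thus listed in both comparisons with opposite signs, and the 2 comparisons share the HFD libraries. With all 18 libraries the counts of 14 and 4 became 1 and 0 (8.53% and 0.00996% of all genes called, against 21.5% and 3.88%). Cs, Idh3g and Aldh6a1 then turned to 0.20, 0.06 and 0.16 for HFD against ND. With equal FPKM totals the counts were 7 and 0 (21.5% and 1.39% of all genes). For 2 of 8 adipocyte markers the change in GT against HFD was higher in fat than in liver.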

How the results depend on the processing

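The counts of called members moved as follows, and the cause was not tested unless fewer libraries or more genes account for it by construction. With all 9 fat libraries the counts of 0 became 20 for HFD against ND, 3 for GT against HFD and 8 for GT against ND without the libraries richest in testis transcripts (ND 1, ND 3, HFD 1), where the lone ND library is assumed to vary like the other groups, and 6 for GT against HFD with only the 2 compared diets. Leaving out 1 of the 9 libraries gave 0 to 18 for HFD against ND, 0 to 3 for GT against HFD and 0 to 4 for GT against ND. Over all genes these fits called 0.43% to 27.4%, 0% to 1.7% and 0% to 18.6%. Without ND 1, GT against HFD (3 calls, 1.7% of all genes) gave 1 with 0.1 added (0.941%) and 0 with no filter (0.0151%). It gave 1 with equal totals (0.692%) and 6 with only the 2 diets (7.43%). GT against ND (4 calls, 10.7% of all genes) gave 0 with no filter (4.24%), 2 with equal totals (9.39%) and 0 with only the 2 diets (1.67%). Leaving out 1 library gave 11 to 21 for HFD against ND, 0 to 5 for GT against HFD and 0 to 9 for GT against ND, where 1 rise replaced the falls without ND 2.

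In liver, HFD against ND (4 calls, 18.6% of all genes) gave 1 with equal totals (13.7%) and 14 with only the 2 diets (28.2%). The 14 were 7 rises and 7 falls. GT against HFD (1 call, 5.36% of all genes) gave 0 with only the 2 diets (1.68%) and 2 without the muscle-rich libraries (2.3%). GT against ND (0 calls, 2.6%) gave 3 without these libraries (4.17%). Leaving out 1 library gave 0 to 16, 0 to 4 and 0 to 2 for HFD against ND, GT against HFD and GT against ND, with falls among the 16. Over all genes these fits called 4.35% to 31.8%, 0.407% to 11.7% and 0.462% to 4.04%. The tissue difference for HFD against ND (14 calls, 21.5% of all genes) gave 7 with equal totals (21.5%) and 1 with all 18 libraries (8.53%). Leaving out 1 library, fat ND 2 and ND 3 aside, gave 13 to 18 (15.9% to 28.3%). The tissue difference for GT against HFD (4 calls, 3.88%) gave 0 with equal totals (1.39%) and 0 with all 18 libraries (0.00996%). It gave 2 without the muscle-rich libraries (2.88%). Leaving out 1 library, fat ND 2 and ND 3 aside, gave 1 to 4 (0.895% to 8.4%). The tissue level (24 calls, 85.3%) gave 27 with equal totals (91.2%), 26 with quantile scaling (78.5%) and 17 with all 18 libraries (74.7%). Leaving out 1 library, fat ND 2 and ND 3 aside, gave 23 to 26 (84.1% to 86.3%).

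Of single genes, Cs, Idh3g and Aldh6a1 turned to 0.20, 0.06 and 0.16 in the tissue difference for HFD against ND with all 18 libraries. In tissue level Idh3b, Dbt, Ivd and Mccc2 turned to 0.06, 0.38, 0.21 and 0.43 with equal totals, Idh2, Auh and Pcca to -0.31, -0.25 and -0.25 with quantile scaling, and Hibch to -0.01 with all 18 libraries. The log2 ratio of Bckdk to Ppm1k moved to 4.12 in GT and 4.01 in HFD fat with 1 FPKM added.

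The labels do not say what a replicate number marks, and the data gave no pairing over all diets. Deviations of same-numbered libraries correlated at -0.07 to 0.64 in fat (6 of 9 pairs over 0.1) and at -0.30 to 0.42 in liver (4 of 9), and 11 of 18 and 7 of 18 comparisons were best with their own number. In fat with ND 1 included, all 3 pairs of GT and ND were over 0.1 (0.26, 0.12 and 0.19), but not those of the other comparisons. Without ND 1, as in the blocked fits of fat below, the pairs of GT and ND stood at 0.10 and -0.04. Those of HFD and ND then stood at 0.32 and -0.62. With the replicate block, fat without ND 1 gave 0 calls for GT against HFD, 13 for HFD against ND and 0 for GT against ND. Of all genes 0.0389%, 17.7% and 1.22% were called there. Liver gave 0 for GT against HFD (2.87% of all genes) and 4 for HFD against ND (15.5%). The tissue differences gave 2 for GT against HFD (3.33%) and 14 for HFD against ND (19.7%).

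Of all repeated counts and ratios, 148 stayed close (within 1.5 times for a count of calls, within 1 SD for a ratio) and 69 moved further. In 2 the majority of the calls changed direction. For 1 of these, liver HFD against ND without GT 3, the 4 calls of the main fit kept their direction. There 9 falls stood beside 7 rises. Counts were compared by their total, so a shift between rises and falls can pass as close. The tissue level under quantile scaling is such a case (9 higher and 17 lower, against 13 and 11). The 148 also hold counts that stayed at 0, some in fits that called no gene at all. Groups of 3 libraries, and 2 for ND fat, limit the precision, and the depth behind each FPKM is unknown.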
